A study of Mus musculus with 8 samples.

Results

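The proteins of the large subunit of the cytosolic ribosome were followed at the transcript level in primary mouse pancreatic acinar cells, the enzyme-secreting cells of the exocrine pancreas. Members were taken by gene symbol, as every row named Rplp0 to Rplp2 or Rpl followed by a number and at most a letter and a digit, with rows ending in -ps left out. This gave 53 genes of 54427 in the table, of which 30191 genes were at 0 in all 8 libraries. Of the 53 members, 52 were above 0 in at least 1 library and 48 had a mean of at least 1 CPM and were tested. The 5 members not tested were Rpl24, Rpl32l, Rpl3l, Rpl39l and Rpl10l. In the GENCODE annotation 2 of the members, Rpl6l and Rpl32l, are processed pseudogenes, intronless copies of an mRNA.

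Cells came from wild-type mice (genotype WT in the labels) and were kept in HEPES medium with fetal bovine serum. All 8 libraries carry an injury, caused by 6 h in 1 µM of the octapeptide of cholecystokinin (CCK), the gut hormone that drives acinar secretion and that injures these cells at high dose. By their titles, 4 libraries are the injury model alone (AP) and 4 the injury model with OCA (AP_OCA), which usually stands for obeticholic acid, a synthetic bile acid that activates the nuclear receptor FXR. The treatment text gives 2.5 µM OCA and is the same for all 8 libraries, so the reading that AP received none rests on the titles. The labels give no age, sex or strain of the mice, no library of uninjured cells was analysed here, and nothing states whether replicates came from separate animals, so p-values measure the spread between these samples. Setting AP_OCA against AP addresses what OCA changes in cells under CCK injury.

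The large subunit joins amino acids into a chain and releases the chain through a tunnel. It is built in the nucleolus from ribosomal RNA and its proteins, nearly all of them in a single copy, with the proteins of the side stalk as the exception. Most mRNAs for these proteins begin with a C followed by a run of C and T at the 5′ end, the terminal oligopyrimidine (TOP) motif, through which their translation depends on the growth kinase complex mTORC1. Acinar cells make more secretory protein than almost any other cell and are rich in ribosomes on the endoplasmic reticulum.

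The sequences at the annotated start of transcription are shown for this feature, whose letters were found there in some members and not in others. Promoters of 40 members were found in the RefSeq table of the mouse GRCm38.p6 build. The window printed runs from 35 bases before to 25 bases after the annotated start, 5′ to 3′ on the gene's strand, and capitals mark the longest run of C and T that begins within 25 bases of that start. The first group shows members that rose in AP_OCA by the test given further on, and the second the pair whose levels differed least.
Rpl38 (chr11:114668545-114668604, plus strand): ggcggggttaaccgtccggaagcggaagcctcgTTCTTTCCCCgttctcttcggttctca
Rpl22l1 (chr3:28805473-28805532, plus strand): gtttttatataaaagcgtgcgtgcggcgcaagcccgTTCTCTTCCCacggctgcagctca
Rpl34 (chr3:130730313-130730372, minus strand): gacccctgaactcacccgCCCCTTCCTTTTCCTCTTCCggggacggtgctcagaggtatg
Rpl36a (chrX:134585619-134585678, plus strand): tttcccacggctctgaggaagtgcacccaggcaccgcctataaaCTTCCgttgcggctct
Rpl39 (chrX:37085198-37085257, minus strand): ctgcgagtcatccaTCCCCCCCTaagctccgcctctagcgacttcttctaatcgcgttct
Rpl26 (chr11:68901531-68901590, plus strand): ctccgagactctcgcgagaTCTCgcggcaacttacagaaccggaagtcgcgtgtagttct
The members with the smallest fold changes follow.
Rplp0 (chr5:115559432-115559491, plus strand): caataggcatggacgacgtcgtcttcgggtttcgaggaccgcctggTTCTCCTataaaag
Rpl4 (chr9:64173352-64173411, plus strand): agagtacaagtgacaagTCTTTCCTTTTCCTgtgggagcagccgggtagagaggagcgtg
Rpl38 and Rpl22l1 have a run of 10 pyrimidines at the start and Rpl34 has one of 20 across it. At a second annotated start of Rpl34, not printed, the longest run is of 8. The longest run near the start is of 9 in Rpl39, 5 in Rpl36a and 4 in Rpl26. In the pair of smallest change it is of 14 in Rpl4, longer than in Rpl38 or Rpl22l1, and 7 in Rplp0. Across members, a C within 3 bases of the annotated start followed directly by 4 or more C or T was found in 16 of 40 promoters (40.0%). The share was 41.7% among 24 promoters of small subunit proteins and 13.5% among all 27025 genes of the table. On the opposite strand the same search gave 12.5% of members and 16.0% of all genes. Among tested members, 15 had such a start, with 3 passing and a log2 fold change of 0.57 at the median, and 20 did not, with 3 passing and 0.47. Over all genes tested, 0.854% passed with AP_OCA higher. Tested members without a promoter in the table are not in these counts, among them Rpl17, Rpl36 and Rpl23a, which passed. A match describes the letters at the annotated start, and no match says only that they are not in this window.

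Values in the table had been quantile normalised, which gives every library the same distribution, so a CPM here (the value taken back from the log scale and scaled to 1000000 per library) is a position in a shared distribution. The depth in reads is unknown; low values fall on steps like whole counts, and by those steps 1 CPM was step 9 to 14 in 7 libraries and step 65 in AP_OCA replicate 2. That library stood apart. It held 21010 genes above 0 against 15394 to 16640 in the others, 3666 CPM of 12 lymphocyte markers against 1.25 to 32.7, and 10478 CPM of 11 macrophage and myeloid markers against 79.8 to 174. All 12 and all 11 lay above the other 7 libraries, in which Cd3e, Cd3g and Cd2 of T cells were at 0. The 10 islet markers summed to 9.09 CPM there against 513 to 2162. Acinar markers were high in all 8 libraries, at 379382 to 387245 CPM summed over 11 genes in AP, 363686 to 373931 in AP_OCA replicates 1, 3 and 4, and 355478 in AP_OCA replicate 2. Every comparison is therefore given with all 8 libraries and without AP_OCA replicate 2.

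Large subunit transcripts were more abundant in AP_OCA than in AP nearly throughout the list, and 9 rose by the test once AP_OCA replicate 2 was left out, of which 1 still passed after trends with transcript length and GC content were removed. Those 9 were Rpl38, Rpl17, Rpl22l1, Rpl36a, Rpl39, Rpl34, Rpl26, Rpl36 and Rpl23a. None fell, and 39 did not pass. In that fit (limma on log2(CPM + 1), Benjamini-Hochberg adjustment over all genes, adjusted p under 0.05), 266 of 10894 genes passed (2.44%), 93 (0.854%) higher and 173 (1.59%) lower. The median log2 fold change of the 48 members was 0.52, with quartiles of 0.41 and 0.74 and a range of 0.03 to 1.35, beside a median of 0.00 over all genes; all 48 were above 0, as were 50% of genes. In 38 members every AP_OCA library lay above every AP library, which was so of 11.1% of genes, and in 0 members every one lay below, which was so of 12.1%. At an unadjusted p under 0.05, 37 members were higher (11.8% of genes) and 0 lower (13.9%).

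With all 8 libraries no gene passed: 0 of 11311 (0%) in limma, with a smallest adjusted p of 0.199 over all genes and 0.260 among members. At an unadjusted p under 0.05, 29 of 48 members were higher and 0 lower, against 7.31% and 8.87% of genes, and 1830 genes in all were below it. The median log2 fold change of the members was 0.69, against -0.01 for all genes, and 47 of 48 were above 0 (49.1% of genes); Rpl4 was the exception at -0.08. The groups did not overlap in 37 members with AP_OCA higher (6.75% of genes) and in 0 with AP_OCA lower (8.57%). When limma gave each library an estimated quality weight, 15 members and 1052 genes passed, the members all higher (4.25% of genes higher, 5.05% lower).

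The calls among members depend on the processing and on single libraries, while the direction of the 9 did not change in the fits without AP_OCA replicate 2 named here. Once each library's trend with transcript length and GC content was removed, 1 of the 9 passed, Rpl38, the median over members was 0.25 and 40 were above 0. In that fit Rpl17 stood at 0.62 (adjusted p = 0.0752), Rpl36 at 0.60 (0.0697), Rpl34 at 0.52 (0.117), Rpl26 at 0.46 (0.156), Rpl39 at 0.39 (0.151), Rpl36a at 0.38 (0.143), Rpl23a at 0.25 (0.392) and Rpl22l1 at 0.18 (0.503), as log2 fold changes with adjusted p in parentheses. With limma without the mean-variance trend, or with no filter on low values, 0 members passed. Without any 1 of the 4 AP libraries, 0 members and 7 to 12 genes passed, while without AP_OCA replicate 1 the count was 16 members and 973 genes. Without AP_OCA replicate 3 only Rpl17 passed, and without AP_OCA replicate 4 Rpl38, Rpl36a and Rpl17 did. Each of the 9 stayed above 0 in all 7 of these fits.

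**Figure D1:**
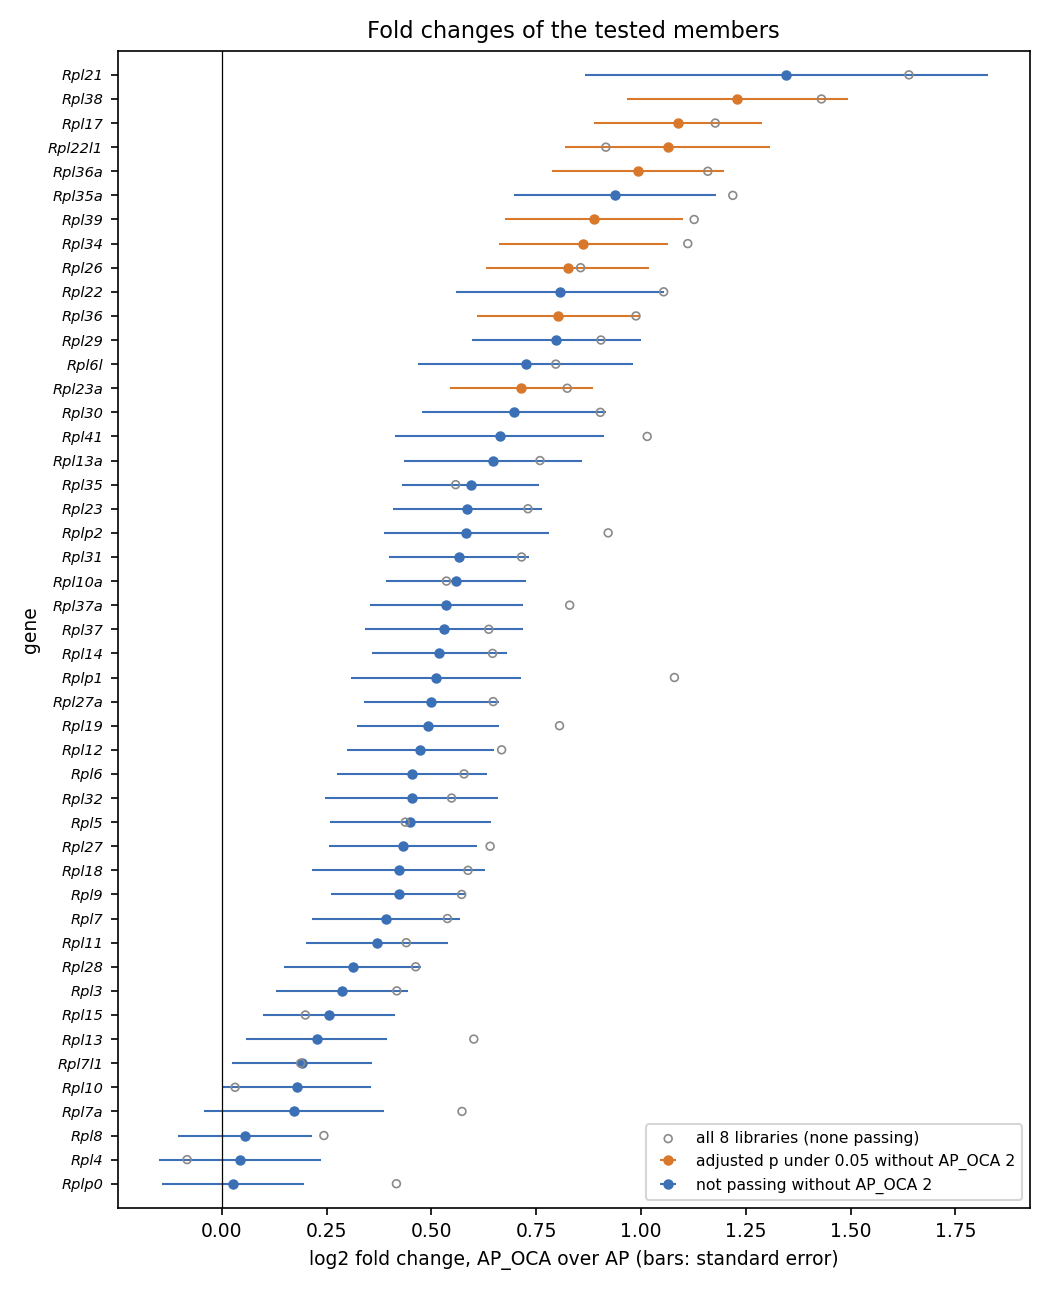
Log2 fold change (AP_OCA over AP, log2(CPM + 1) scale) of 47 of the tested members, without AP_OCA replicate 2, with standard errors. All 47 lie above 0, from 0.03 for Rplp0 to 1.35 for Rpl21, and the 9 members that passed are in orange. Open grey circles give the fold changes with all 8 libraries, of which none passed.

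The libraries differed in how far the whole list was raised. The members summed to 14513, 15024, 15556 and 13709 CPM in AP replicates 1 to 4, 14700 ± 787 (SD, n = 4). They summed to 18011, 17519 and 24921 CPM in AP_OCA replicates 1, 3 and 4, 20150 ± 4139 (SD, n = 3), and to 38716 CPM in AP_OCA replicate 2. Every AP_OCA library lay above every AP library, and AP_OCA replicate 4 lay apart from replicates 1 and 3. It was the highest of the 3 in 43 of 48 members, with a median 1.41-fold excess over the mean of the other two. AP_OCA replicates 1 and 3 by themselves both lay above every AP library in 38 members. The median coefficient of variation over members was 10.3% within AP and 21.8% within AP_OCA replicates 1, 3 and 4. AP_OCA replicate 2 lay above the other 7 libraries in 34 members and below them in 2, Rpl4 and Rpl10. In bulk samples, fewer cells of a type and less RNA per cell cannot be told apart.

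**Figure D2:**
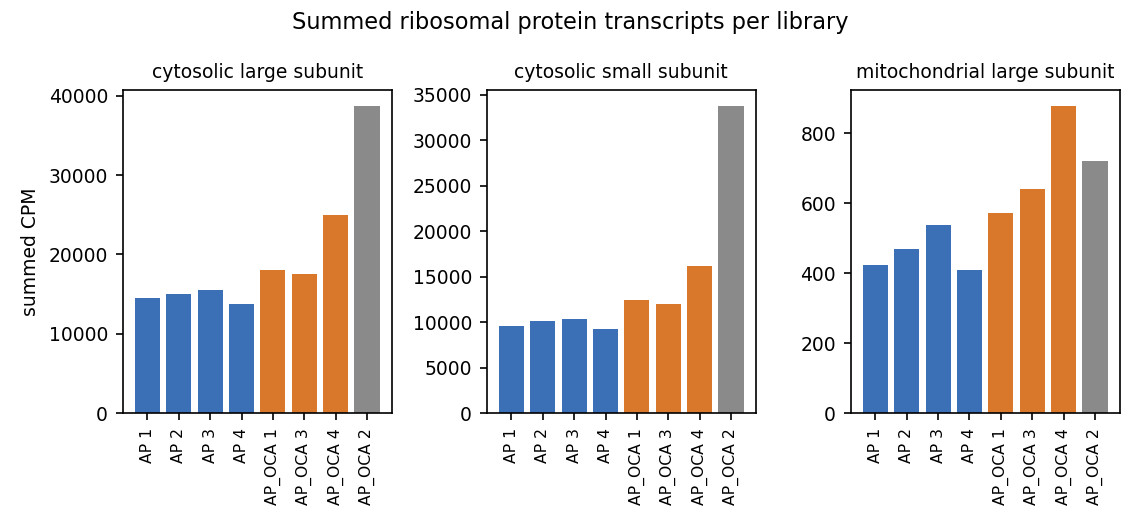
Summed CPM of cytosolic large subunit, cytosolic small subunit and mitochondrial large subunit proteins in each library; bars start at 0 and AP_OCA replicate 2 is in grey. The large subunit sum is 13709 to 15556 in AP, 17519 to 24921 in AP_OCA replicates 1, 3 and 4, and 38716 in AP_OCA replicate 2.

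The acinar marker sum separated AP from AP_OCA replicates 1, 3 and 4. It was lower in AP_OCA, at 363686 to 373931 CPM against 379382 to 387245 in AP. Of its 11 genes, 0 were higher and 1 was lower without overlap. Among marker sums of other cell types, only the ductal and endothelial sums separated AP from AP_OCA replicates 1, 3 and 4. The ranges of the other sums overlapped. Ductal markers (7 genes) summed to 306 to 379 CPM in AP and 381 to 453 in AP_OCA, with 2 genes higher without overlap. Stellate and fibroblast markers (10 genes) summed to 192 to 258 CPM in AP and 125 to 196 in AP_OCA, with 5 genes lower without overlap. Endothelial markers (10 genes) summed to 108 to 143 CPM and 47.3 to 105, with 1 gene higher and 1 lower without overlap. Islet markers summed to 513 to 2162 and 1247 to 1746 CPM, with 0 genes separated. Lymphocyte markers summed to 3.07 to 32.7 and 1.25 to 3.23, with 1 gene lower without overlap. Macrophage and myeloid markers summed to 94.0 to 174 and 79.8 to 119, with 2 genes lower without overlap. Over all genes tested, AP_OCA was higher without overlap in 11.1% and lower in 12.1%. The part of these cells in the ribosomal protein levels was not tested.

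**Figure D3:**
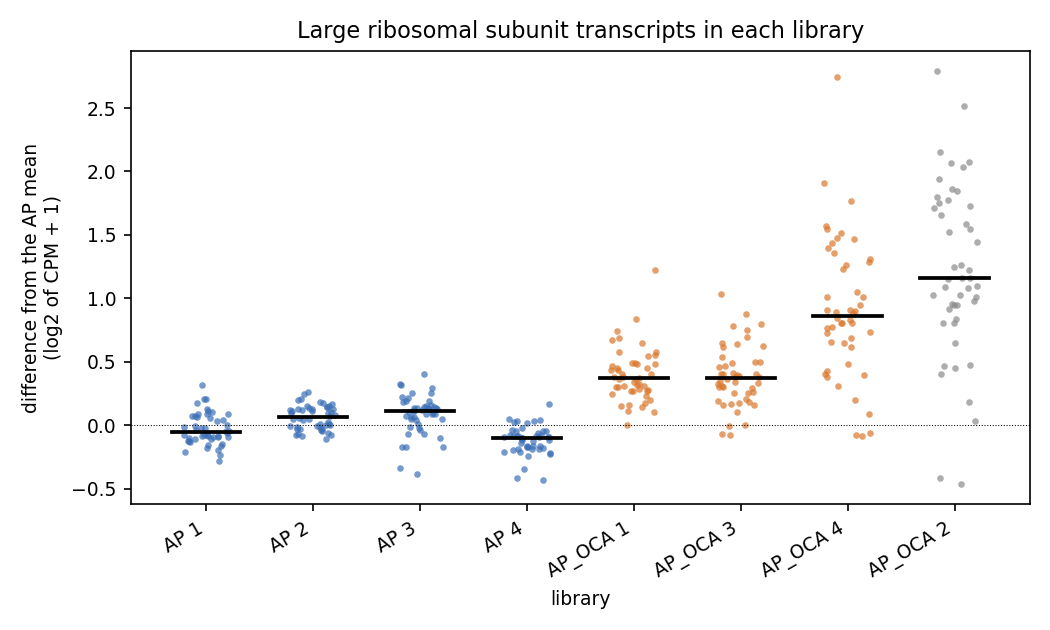
Difference of each tested member from its AP mean, in log2(CPM + 1), in each library; each point is 1 of the 48 members, horizontal lines are medians over members, and AP_OCA replicate 2 stands last, in grey. The median difference is -0.10 to 0.12 in the AP libraries, 0.37 in AP_OCA replicates 1 and 3, 0.86 in AP_OCA replicate 4 and 1.16 in AP_OCA replicate 2.

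The stalk, which recruits the elongation factors that drive translation, is formed by Rplp0 with pairs of Rplp1 and Rplp2, next to Rpl12 at its base. None of the 4 passed. Rplp0, the scaffold of the stalk and a common reference gene, stood at 1166, 1166, 1534 and 1097 CPM in AP, 1228, 1372 and 1166 in AP_OCA replicates 1, 3 and 4, and 3695 in AP_OCA replicate 2. The groups overlapped without that last library, and the log2 fold change was 0.03 ± 0.17 (SE, adjusted p = 0.940), or 0.42 (adjusted p = 0.588) with all 8. Rplp1 stood at 879.5, 879.5, 976 and 944 CPM in AP, 1075, 1097 and 1901 in AP_OCA replicates 1, 3 and 4, and 6355 in AP_OCA replicate 2. Its groups did not overlap, but its log2 fold change of 0.51 did not pass (adjusted p = 0.138), with AP_OCA replicate 4 far above replicates 1 and 3. Rplp2 stood at 141, 171, 187 and 145 CPM in AP, 217, 197 and 323 in AP_OCA replicates 1, 3 and 4, and 615 in AP_OCA replicate 2 (log2 fold change 0.58, adjusted p = 0.0970). Rpl12 stood at 487, 544, 549.8 and 487 CPM in AP, 642, 634 and 904 in the 3 AP_OCA libraries and 1228 in AP_OCA replicate 2 (log2 fold change 0.47, adjusted p = 0.119). Rplp1, Rplp2 and Rpl12 thus lay above AP in every AP_OCA library, and Rplp0 did not. Per kilobase of transcript Rplp1 was the most abundant member in AP, at 1843 CPM per kb, against 914 for Rplp0 and 359 for Rplp2.

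Rpl5 and Rpl11 enter the ribosome together with the 5S rRNA, and outside it they bind and block Mdm2, the ligase that degrades p53. Rpl5 stood at 452, 463, 377 and 414 CPM in AP, 561, 457 and 764 in AP_OCA replicates 1, 3 and 4, and 561 in AP_OCA replicate 2, with AP_OCA replicate 3 inside the AP range. Rpl11 stood at 303, 327, 349 and 319.7 CPM in AP, 391, 369.9 and 509 in those AP_OCA libraries and 509 in AP_OCA replicate 2, with no overlap. Their log2 fold changes were 0.45 (adjusted p = 0.160) and 0.37 (adjusted p = 0.187), and neither passed.

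Proteins of the subunit's core had the smallest fold changes of the role groups. Rpl3 and Rpl8 reach toward the site of peptide bond formation, Rpl4 extends into the tunnel, and Rpl10 joins last, in the cytoplasm. Rpl4 stood at 976, 868, 602 and 742 CPM in AP and 944, 742 and 753 in AP_OCA replicates 1, 3 and 4, with 569 in AP_OCA replicate 2, so the groups overlapped fully. Its log2 fold change was 0.04 ± 0.19 (adjusted p = 0.911), and -0.08 with all 8 libraries. Rpl8 stood at 602, 661, 707 and 588 CPM in AP, 707, 607 and 677 in the 3 AP_OCA libraries and 1117 in AP_OCA replicate 2 (log2 fold change 0.05 ± 0.16, adjusted p = 0.858). Rpl10 stood at 904, 764, 879 and 677 CPM in AP, 868, 799 and 1075 in the 3 AP_OCA libraries and 602 in AP_OCA replicate 2 (log2 fold change 0.18 ± 0.18, adjusted p = 0.545). Rpl3, at 409, 414, 473 and 452 CPM in AP and 528, 502 and 569 in the 3 AP_OCA libraries, was the only one of the 4 whose groups did not overlap (log2 fold change 0.29, adjusted p = 0.264). The median of the 4 was 0.12, against 0.52 over all members.

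At the mouth of the exit tunnel sit proteins that meet the signal recognition particle and the enzymes acting on the growing chain. Of 7 such members (Rpl17, Rpl19, Rpl23a, Rpl26, Rpl31, Rpl35 and Rpl39), 4 rose and 3 did not pass, with a median log2 fold change of 0.71. Over the list 9 of 48 members rose, and 0.854% of all genes did. All 7 had groups that did not overlap, as did 38 of the 48 members and 11.1% of all genes. None of the 4 passed once the length and GC trend was removed. Rpl17 stood at 64.2, 74.0, 57.9 and 54.7 CPM in AP, 147, 97.9 and 166 in AP_OCA replicates 1, 3 and 4, and 171 in AP_OCA replicate 2. That was 62.7 ± 8.49 in AP (SD, n = 4) and 137 ± 34.9 in the 3 AP_OCA libraries (SD, n = 3), and the log2 fold change of 1.09 ± 0.20 had the lowest adjusted p of any member (0.0267). With all 8 libraries it was 1.18 (adjusted p = 0.260). Rows of pseudogenes named after Rpl17 held 303% of its own mean level, and how reads matching several places were counted is not given in the sources used here, so its level is uncertain. With those rows added, its log2 fold change was 0.75 and it still passed.

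Rpl23a, the docking protein of the signal recognition particle at the tunnel exit, lies on chromosome 11 (78180932 to 78183584, minus strand, mm10). It stood at 89.3, 88.4, 87.4 and 64.0 CPM in AP and at 132, 133 and 139 in AP_OCA replicates 1, 3 and 4, with 182 in AP_OCA replicate 2. Its AP_OCA libraries agreed closely, at 134 ± 4.13 (SD, n = 3) against 82.3 ± 12.2 (SD, n = 4), and its log2 fold change was 0.71 ± 0.17 (adjusted p = 0.0486). Rpl26, the tunnel-exit protein that receives the UFM1 tag at the endoplasmic reticulum, lies on chromosome 11 (68901583 to 68906989, plus strand). It stood at 257, 278, 217 and 231 CPM in AP, 365, 382 and 588 in AP_OCA replicates 1, 3 and 4, and 473 in AP_OCA replicate 2, and rose by 0.83 ± 0.19 log2 units (adjusted p = 0.0468).

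Rpl39 is among the shortest ribosomal proteins and lines the tunnel wall; its gene is on chromosome X (37082520 to 37085402, minus strand). It stood at 75.4, 80.9, 88.0 and 75.03 CPM in AP, 119, 123 and 222 in AP_OCA replicates 1, 3 and 4, and 289 in AP_OCA replicate 2. All AP_OCA libraries lay above AP, and the log2 fold change was 0.89 ± 0.21 (adjusted p = 0.0486). Rpl19 (0.49, adjusted p = 0.101), Rpl31 (0.57, adjusted p = 0.0699) and Rpl35 (0.59, adjusted p = 0.0611) did not pass.

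Rpl38, a small surface protein that in the mouse embryo is needed for translation of a set of Hox mRNAs, had the largest log2 fold change of the 9. It lies on chromosome 11 (114668524 to 114672331, plus strand). Rpl38 stood at 79.7, 86.0, 109 and 61.5 CPM in AP, 139, 170.3 and 312 in AP_OCA replicates 1, 3 and 4, and 340.3 in AP_OCA replicate 2. The group means were 84.2 ± 19.8 (SD, n = 4) and 207 ± 92.3 (SD, n = 3), and the log2 fold change was 1.23 ± 0.26 (adjusted p = 0.0403). With all 8 libraries it was 1.43 (adjusted p = 0.260).

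Rpl22l1 is a paralog of Rpl22, and in the mouse Rpl22 represses it by binding its mRNA. Rpl22l1 (chromosome 3, 28805436 to 28807424, plus strand) stood at 34.6, 43.0, 36.5 and 36.2 CPM in AP, 55.1, 69.5 and 130.2 in AP_OCA replicates 1, 3 and 4, and 52.4 in AP_OCA replicate 2. Its log2 fold change was 1.06 ± 0.24 (adjusted p = 0.0450). After removal of the length and GC trend it was 0.18 (adjusted p = 0.503), and -0.073 with all 8 libraries. Rpl22 itself stood at 66.7, 79.0, 78.7 and 61.4 CPM in AP, 99.98, 93.4 and 209 in the 3 AP_OCA libraries and 249 in AP_OCA replicate 2 (log2 fold change 0.81, adjusted p = 0.0784). Both were thus higher in every AP_OCA library, and only the paralog passed. In CPM Rpl22 was the higher of the pair in both groups. Per kilobase Rpl22l1 was above Rpl22 in both groups, at 69.8 against 34.9 CPM per kb in AP and 158 against 65.5 in AP_OCA replicates 1, 3 and 4. That order rests on annotated lengths of 538.5 bases for Rpl22l1 and 2048 for Rpl22. Whether the change of the pair differed was not tested.

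Rpl36a, which contacts tRNA leaving the ribosome, lies on chromosome X (134585654 to 134588062, plus strand). It stood at 81.6, 91.7, 85.5 and 72.6 CPM in AP, 132, 144 and 237 in AP_OCA replicates 1, 3 and 4, and 263 in AP_OCA replicate 2, with a log2 fold change of 0.99 ± 0.20 (adjusted p = 0.0321). Rpl34 (chromosome 3, 130726831 to 130730398, minus strand) stood at 143, 134, 132 and 125 CPM in AP, 182, 229.7 and 343 in AP_OCA replicates 1, 3 and 4, and 487 in AP_OCA replicate 2. Its log2 fold change was 0.86 ± 0.20 (adjusted p = 0.0464). Rpl36 (chromosome 17, 56613416 to 56614243, plus strand) stood at 153, 170.4, 204 and 161 CPM in AP, 268, 248 and 402 in AP_OCA replicates 1, 3 and 4, and 500.1 in AP_OCA replicate 2, with a log2 fold change of 0.80 ± 0.20 (adjusted p = 0.0486). In all 3 genes AP_OCA replicate 4 was the highest of the 3 libraries, and no AP_OCA library overlapped AP. Rpl29 (0.80, adjusted p = 0.0517) and Rpl35a (0.94, adjusted p = 0.0530) lay just outside the threshold.

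**Figure D4:**
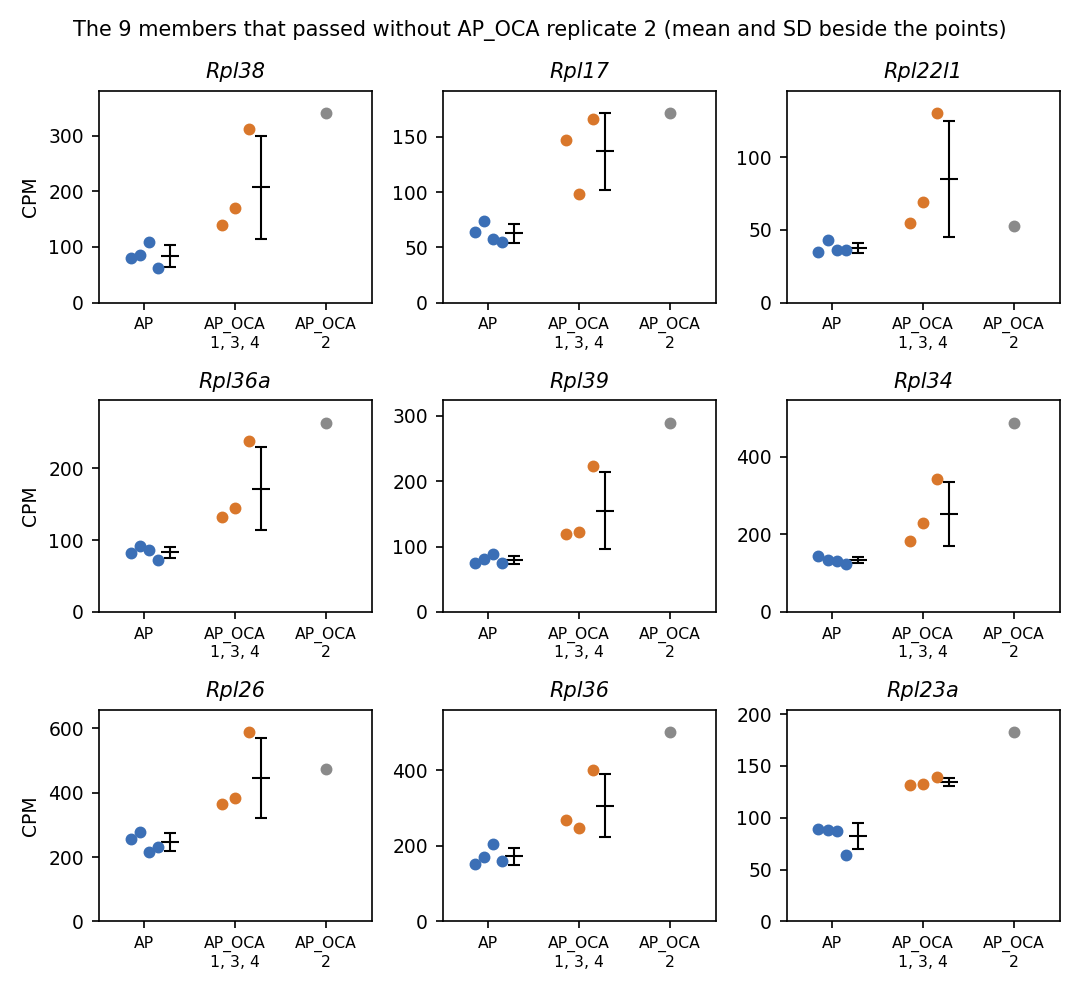
CPM of each of the 9 members that passed, 1 point per library, on axes that start at 0, with the mean and SD of AP (n = 4) and of AP_OCA replicates 1, 3 and 4 (n = 3) beside the points; AP_OCA replicate 2, left out of that test, is marked apart. Every AP_OCA library lies above every AP library in all 9, and AP_OCA replicate 4 is well above replicates 1 and 3 in most of them.

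Other members chosen for a known role or size did not pass. Rpl10a of the L1 stalk, which escorts spent tRNA out, stood at 388, 367, 353 and 377 CPM in AP and 481, 513 and 661 in the 3 AP_OCA libraries (log2 fold change 0.56, adjusted p = 0.0729). Rpl41, which encodes a very short peptide, stood at 753, 799, 904 and 843 CPM in AP, 976, 1018 and 2226 in AP_OCA replicates 1, 3 and 4, and 3462 in AP_OCA replicate 2 (0.66, adjusted p = 0.124). Rpl27a had a log2 fold change of 0.50 (adjusted p = 0.0866). Rpl13a, which in human myeloid cells leaves the ribosome to silence inflammatory mRNAs, stood at 8.92 to 11.9 CPM in AP and 14.3 to 21.9 in AP_OCA replicates 1, 3 and 4 (0.65, adjusted p = 0.0895). Rpl7l1, a paralog of Rpl7, differed little, at 24.9 to 28.3 CPM in AP and 28.6 to 33.0 in the 3 AP_OCA libraries (0.19, adjusted p = 0.493).

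The member with the largest fold change of all did not pass, and once AP_OCA replicate 2 was left out its size rested largely on AP_OCA replicate 4. Rpl21 stood at 42.8, 40.3, 47.1 and 35.1 CPM in AP, 60.7 and 69.6 in AP_OCA replicates 1 and 3, and 281 and 239.8 in AP_OCA replicates 4 and 2. Its log2 fold change without AP_OCA replicate 2 was 1.35 ± 0.48 (adjusted p = 0.134), and 0.65 with AP_OCA replicate 4 left out as well. With AP_OCA replicate 2 kept, it was 1.64, and 1.27 with AP_OCA replicate 4 left out. Rpl7a stood at 37.7, 50.3, 52.5 and 30.7 CPM in AP and 46.2, 57.9 and 39.4 in the 3 AP_OCA libraries, which overlapped, with 145 in AP_OCA replicate 2 (0.17 ± 0.22, adjusted p = 0.640). Pseudogene rows held 81.2% of the level of Rpl21 and 43.8% of that of Rpl7a, so both levels are uncertain. Across the list, 37 members have rows of pseudogenes named after them, 187 in all, of which 96 were above 0. Among the called members, these rows held 21.3% of the level of Rpl23a and 14.7% of that of Rpl38. Apart from Rpl17, the other called members had at most 9.78%. Adding these rows left the same 9 members called, but pseudogenes under other names were not added.

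The 23 tested members outside these roles had a median log2 fold change of 0.52, with a range of 0.17 to 1.35. Of these, 3 rose (Rpl36, Rpl34 and Rpl36a), where 0.854% of all genes rose. In 18 the groups did not overlap, against 11.1% of all genes. Rpl13 stood at 843, 843, 944 and 753 CPM in AP, 1019, 843 and 1117 in AP_OCA replicates 1, 3 and 4, and 2790.1 in AP_OCA replicate 2 (0.23, adjusted p = 0.409), and its groups overlapped. Rpl15 did not overlap in those 7 libraries, at 191 to 231 CPM in AP and 241 to 259 in AP_OCA, but its AP_OCA replicate 2 lay inside the AP range at 214 (0.26, adjusted p = 0.315). The 10 members whose groups overlapped without AP_OCA replicate 2 were Rplp0, Rpl13, Rpl10, Rpl4, Rpl8, Rpl32, Rpl5, Rpl18, Rpl7a and Rpl6l. In AP_OCA replicate 2 itself, 6 members lay more than 2-fold above the highest of the other 7 libraries, among them Rplp1 (3.34-fold), Rpl7a (2.51), Rpl13 (2.50), Rplp0 (2.41) and Rpl19 (2.02). Of these 6, Rpl7a, Rpl13 and Rplp0 did not separate the groups when that library was left out.

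The untested members were near or at 0 in these values. Rpl24, mutated in the Belly spot and tail mouse, stood at 0.631 to 1.08 CPM in AP and 0.494, 1.94 and 0.538 in AP_OCA replicates 1, 3 and 4. How reads matching several places were counted is not given, so the level of Rpl24 in these cells is uncertain. Rpl32l, a processed pseudogene, stood at 0.305 to 0.724 CPM in AP and 0.561, 0.926 and 0.129 in the same AP_OCA libraries. Rpl3l, the striated muscle paralog of Rpl3, and Rpl39l, a testis paralog of Rpl39, were at 0 in most libraries and at most 0.129 CPM. Rpl10l, a testis paralog of Rpl10, was at 0 in all 8, where a count of 0 allows up to 0.313 CPM (3 counts) in 7 libraries, counting error only.

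Shorter and less abundant transcripts had the larger fold changes. Among the 24 members under 834 bases, 8 rose, with a median log2 fold change of 0.62, and among the other 24, 1 rose, with a median of 0.46. Over all genes tested, 0.854% rose, and the share among genes of like length was not determined. Spearman's rho of the log2 fold change across the 48 members was -0.48 with transcript length, -0.61 with the AP level and -0.12 with GC content, as a description: members share the libraries and are not independent. The same AP values also enter the fold change, so noise in them pushes the rho with the AP level below 0. After each library's trend with transcript length and GC content over all genes was removed, Rpl38 had a log2 fold change of 0.93 ± 0.19 (adjusted p = 0.0390), and rho with length over members was -0.23. The 20 members with small nucleolar RNA genes inside them had a median of 0.49 and the 28 without had 0.55.

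**Figure D5:**
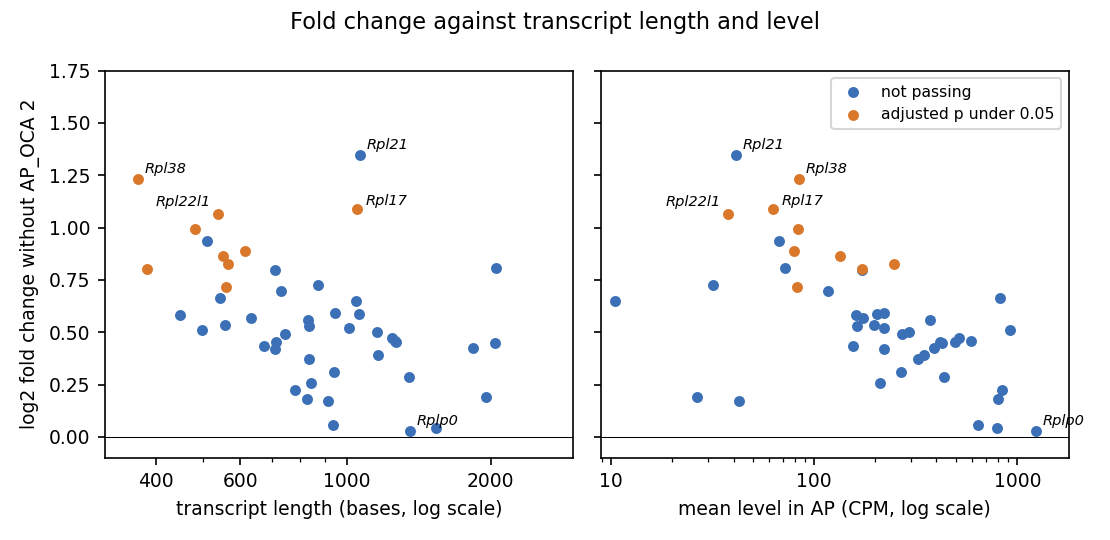
Log2 fold change without AP_OCA replicate 2 against transcript length (left, log axis) and mean CPM in AP (right, log axis) for the 48 tested members, with the 9 that passed in orange. Of those 9, 8 are transcripts below 834 bases, as are 24 of the 48 tested members.

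Other lists of the translation machinery are given for comparison, all from the fit without AP_OCA replicate 2; with all 8 libraries none of their genes passed. Their counts stand beside 0.854% of all genes higher and 1.59% lower. Of 36 small subunit proteins tested 5 rose and 0 fell, with a median log2 fold change of 0.48. Among them were Rps27a, made as a fusion with ubiquitin (1.79 ± 0.18), Rps13 (0.89 ± 0.18), Rps15a and Rps27l. The ratio of summed large to small subunit CPM was 1.499 ± 0.0189 (SD, n = 4) over the AP libraries, 1.48 ± 0.0509 (SD, n = 3) over AP_OCA replicates 1, 3 and 4 and 1.15 in AP_OCA replicate 2. Mitochondrial large subunit proteins, which serve a separate ribosome, had a median of 0.55, and 2 of 48 rose, Mrpl30 (0.88) and Mrpl35 (0.99).

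Factors around the ribosome had smaller medians. Of 43 factors that assemble the large subunit 1 rose, Nsa2 (0.77, adjusted p = 0.0490), where 0.854% of all genes rose, and the median was 0.22. Of 23 translation factors and others with TOP mRNAs none passed, with a median of 0.19; Btf3 (0.75, adjusted p = 0.0517) and Naca (0.68, adjusted p = 0.0530), the partners in the complex that binds new chains at the tunnel exit, came closest. None of 15 genes of RNA polymerase I passed (median 0.15), none of 27 of mTORC1 and TOP regulation (median -0.01) and none of 18 of ribosome quality control (median 0.13). The members of lowest p in these lists pointed both ways. Sesn1, a stress-induced inhibitor of mTORC1, had a log2 fold change of 1.13 (adjusted p = 0.0530), and Eif4ebp2, which blocks cap-dependent initiation until mTORC1 phosphorylates it, had -0.65 (adjusted p = 0.0683). Ddit4, another stress-induced inhibitor of mTORC1, had -1.33 with all 8 libraries (adjusted p = 0.275), at 305 to 477 CPM in AP, 328, 243 and 104 in AP_OCA replicates 1, 3 and 4, and 62.2 in AP_OCA replicate 2. Taf1a and Taf1c, subunits of the RNA polymerase I selectivity factor, had 0.70 (adjusted p = 0.0951) and -0.87 (adjusted p = 0.120). Zfp598, which marks collided ribosomes, had -0.64 (adjusted p = 0.0770), and Edf1, which also binds them, had 0.46 (adjusted p = 0.155).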

How the data were processed

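RNA sequencing of 8 libraries (4 AP, 4 AP_OCA, groups and replicate numbers from the sample titles) was analysed. Per the labels, a SMARTER mRNA kit was used on total RNA, and per the submitters' processing notes the build is mm10; the aligner, counter and annotation are not given in the sources used here. The values the authors deposited are log2 values, lowest -6.64 (the log2 of 0.01), and share 1 distribution. They were returned to the linear scale, 0.01 was removed and each library scaled to 1000000 (CPM). Genes averaging 1 CPM or more were tested on log2(CPM + 1) with limma 3.58.1 (R 4.3.3, mean-variance trend, robust), Benjamini-Hochberg adjusted over all genes at 0.05; fold changes are on that scale, which understates low genes. The tests were checked on simulated data. For each gene the noise was independent and of the same spread in every library, so no simulated library stood apart. Changes were placed only in genes above a set mean level, so the shares below do not cover low genes. At a log2 change of 1, 8% of changed genes were recovered with all 8 libraries and 53% without AP_OCA replicate 2. At a log2 change of 2 the shares were 64% and 98%. False calls numbered 4 and 12. A gene that did not pass may therefore still differ. Positions, lengths and GC came from GENCODE, matched by symbol for all 53 members.

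The members, role groups and lists were chosen with earlier results of these data known. Values are given for members of named roles, members past the threshold and the 5 largest and 5 smallest changes. The design provided for counts or normalised values, and the log2 values followed the latter. Alternatives were 2 normalisations, no rescaling, 2 variance models, 2 filters, pseudocounts of 0.1 and 5 CPM, the replicate block, enzymes left out, length and GC trends removed, pseudogene rows added and each library left out. The results of some single genes are not reported here.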

Additional observations from a re-analysis of the deposited data

Results flagged for a closer look

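Single libraries far from the rest of their group of 4 were looked for in 70 groups of values by Dixon's test at 95%, and 10 were found. Chance gives about 1 in 20 for independent groups, but these groups share libraries, so the 2 rates cannot be compared. In AP, Rplp0 of replicate 3 stood at 1534 CPM against at most 1166 in the others, and Rpl23a of replicate 4 at 64.0 CPM against at least 87.4. In AP_OCA replicate 2, Rplp0 stood at 3695 CPM, Rplp1 at 6355 and Rpl23a at 182, each above the other AP_OCA libraries. Rpl35 stood at 388 CPM in AP_OCA replicate 4 against 302 to 310.5 in the others. Rpl24 stood at 1.94 CPM in AP_OCA replicate 3 against at most 0.655. At the edge of detection, Rpl39l stood at 0.129 CPM in AP replicate 1 and 0.113 in AP_OCA replicate 3, and Rpl3l at 0.0120 in AP_OCA replicate 2. The other libraries of those groups were at or near 0, where any value above 0 is flagged.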

How the results depend on the processing

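With all 8 libraries, 0 genes and 0 members passed in every alternative except these: 1 gene with the digestive enzymes left out, 1052 genes and 15 members with library quality weights (median log2 fold change of members 0.46), and, with 1 library left out, 0 to 266 genes and 0 to 9 members (medians 0.52 to 0.81), the 266 and 9 without AP_OCA replicate 2. With the length and GC trend removed, with or without the replicate block, the median was 0.35, Rpl10 turned to -0.45 and Rpl22l1 to -0.073; Rpl10 was -0.027 with the enzymes left out. With 1 library left out Rpl10 ranged from -0.10 to 0.18 and Rpl4 from -0.21 to 0.043.

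Without AP_OCA replicate 2, 266 genes and 9 members passed. The counts were 113 and 2 on the deposited log2 values, 163 and 3 with enzymes left out, 156 and 3 at a pseudocount of 0.1 CPM, 0 and 0 with no filter, 14 and 0 without the trend in limma, and 1675 and 26 with quality weights (Rpl4 -0.086). With the length and GC trend removed they were 103 and 1 (median 0.25), with Rplp0 at -0.10, Rpl4 -0.22, Rpl8 -0.072, Rpl7a -0.092 and Rpl10 -0.23. Leaving out 1 more library gave 7 to 973 genes, 0 to 16 members, medians of 0.35 to 0.62, Rplp0 at -0.039 to 0.13 and Rpl4 at -0.084 to 0.15. The cause of these differences was not tested. Second quantile normalisation, median centring and added pseudogene rows each kept the same 9 members; 11 passed with a minimum of 5 CPM and 11 with a pseudocount of 5 CPM, the 9 among them.

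Summed CPM with enzymes left out was 42960 in AP, 68324 in the 4 AP_OCA libraries and 58364 without replicate 2; with 1 library left out the sums ranged over 14415 to 15031, 20150 to 27216 and 17765 to 21466.

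The replicate numbers share only a number: deviations of same-numbered libraries correlated at -0.17 to 0.12. With the replicate block 559 genes and 11 members passed (8 of the 9; median 0.55), and with the block and the length and GC trend removed 24 and 0 (median 0.27), with Rplp0 at -0.11, Rpl4 -0.19, Rpl8 -0.035 and Rpl10 -0.26. Depth in reads is unknown, which limits what is said of Rpl24 and the paralogs near 0.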
